A study of Mus musculus with 18 samples.

Results

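Glycolysis, glucose uptake and lactate export are described here through 38 genes chosen by name. They cover the carriers that bring glucose into the cell and the enzymes of each step from glucose to pyruvate. The subunits that turn pyruvate into lactate and the lactate carriers are included. So are the proteins that carry pyruvate into the mitochondrion or control its use there. All 38 were found among the 27179 genes listed for the series. The limit for testing, a mean over the 18 libraries of 10 normalized counts, was reached by 36 of them. The glucose carrier Slc2a4 (at most 21.3 normalized counts in any library) and the hexokinase-like Hkdc1 (at most 6.07) stayed below it. Slc2a3 passed only through its level in Young MSCs.

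The libraries came from marrow stromal cells (MSCs), the adherent cells that grow out of bone marrow, of C57BL6 mice. There were 6 libraries in each of 3 groups. Young MSCs came from mice aged 6 weeks and Old MSCs from mice aged 18 to 24 months. Rejuvenated Old MSCs were old cells, 100000 to a well, that had shared the culture for 7 days with young MSCs behind a membrane with pores of 0.4 µm. Old MSCs were cultured without young cells for the same 7 days, also at 100000 to a well. Young libraries are listed at day 7 too, without a cell number. No library of old cells cultured beside other old cells was used here, so the second cell layer and the age of its donors cannot be told apart. Reads on genes ran from 22936251 to 25648769 in Young, from 24965971 to 29559194 in Old and from 26018046 to 29155223 in Rejuvenated Old libraries. The labels call the libraries of a group biological replicates without naming the animals, so p-values measure the spread between these libraries.

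Glycolysis splits glucose into pyruvate in the cytosol and yields ATP without oxygen. Its first steps spend ATP to trap and split the sugar, and its later, payoff steps return ATP and NADH. Lactate dehydrogenase then regenerates NAD+ by reducing pyruvate to lactate, which leaves the cell through monocarboxylate carriers. Pyruvate that is not reduced enters the mitochondrion, where pyruvate dehydrogenase feeds it to the citric acid cycle unless pyruvate dehydrogenase kinases switch that enzyme off. Marrow stromal cells live in a tissue low in oxygen and are known to rely largely on glycolysis in their undifferentiated state.

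The cells were checked against marker genes, and the markers differed between the groups. The 12 stromal markers summed to 353797 to 379783 normalized counts in Young, 300662 to 317805 in Old and 241508 to 276331 in Rejuvenated Old libraries, without overlap. Their most abundant gene was Col1a2 in Young and Col1a1 in the other groups, and 2 were called higher and 5 lower in Rejuvenated Old against Old. Of the surface proteins that define MSCs, Cd44 and Ly6a (Sca-1) were present in every library. Thy1 was at 175.2 to 227.0 normalized counts in Young but at 0.00 to 3.23 in Old and 0.00 to 21.6 in Rejuvenated Old libraries, and Eng was at 147.5 to 175.1 in Young against 7008 to 7681 in Old. The 12 macrophage markers summed to 927.8 to 1047 normalized counts in Young, 14950 to 18677 in Old and 14970 to 18271 in Rejuvenated Old libraries. Their most abundant gene was Lyz2 in the latter groups (medians 10221 and 9412) and Cd68 in Young (433.8), while 6 of the 12 (Ptprc, Adgre1, Itgam, Tyrobp, C1qa and C1qb) did not exceed 3 reads in any Young library. In Rejuvenated Old against Old, 1 of the 12 was called higher and 1 lower. Osteoblast markers summed to 4450 to 4691 in Young, 114468 to 123212 in Old and 66389 to 94307 in Rejuvenated Old, mostly Spp1. Adipocyte markers summed to 16692 to 19205, 39026 to 41681 and 43006 to 54489, mostly Lpl, with Adipoq, Plin1 and Cidec at no more than 3 reads in Young. Osteoclast markers summed to 1226 to 1299, 5074 to 5329 and 4360 to 5409, mostly Nfatc1 in Young and Ctsk in the others, with Calcr and Dcstamp at no more than 3 reads in any library. Of 6 osteoblast markers, 1 was called higher and 4 lower in Rejuvenated Old against Old. Of the adipocyte markers tested it was 3 higher and 1 lower of 5, and of the osteoclast markers 0 higher and 2 lower of 4. Endothelial markers (at most 140.4) and erythroid markers (at most 18.2) were low throughout. Proliferation genes summed to 8265 to 10231 in Young, 8506 to 10272 in Old and 9713 to 11890 in Rejuvenated Old, with 4 of 10 called higher and 0 lower in Rejuvenated Old against Old, where 21.0% of all genes were called higher and 20.6% lower. The part of these differences in the results for glycolysis was not tested. In bulk RNA, fewer cells of a type and less RNA per cell cannot be told apart.

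Rejuvenated Old against Old MSCs asks whether co-culture with young cells changed these transcripts in old cells. At every step from phosphofructokinase to lactate dehydrogenase, at least 1 gene was higher after co-culture. Pgk1 rose most, 2.39-fold, and Pfkl, Tpi1, Aldoa, Ldha, Gapdh, Pgam1 and Eno1 rose between 1.67-fold and 1.99-fold. The kinase Pdk1 rose 2.19-fold. Of the 36 members tested, 21 were called higher (58.3%) and 7 lower (19.4%) at an adjusted p under 0.05 with limma on log2(normalized count + 1). Over all 14353 genes tested, 21.0% were called higher and 20.6% lower. The median log2 fold change of the members was 0.22, and that of all genes 0.01. A rise of at least 0.5 on the log2 scale was seen in 10 members, against 4.33% of all genes, and a fall of that size in 1, against 4.31%. For 16 members every Rejuvenated Old library lay above every Old library (10.4% of all genes), and for 4 every one lay below (11.6% of all genes). These counts describe members chosen with earlier results of the data known. The members together took up 0.558% to 0.587% of the reads in Old, 0.803% to 0.899% in Rejuvenated Old and 0.967% to 0.998% in Young libraries. Several genes of the chain share sequence with copies elsewhere in the genome. For 26 members tested, less than 10% of the 50-base windows recur in another gene. These had a median of 0.10, with 11 called higher and 7 lower. Of the 10 members that rose by at least 0.5, only Pfkl, Tpi1 and Pdk1 are among them.

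**Figure D1:**
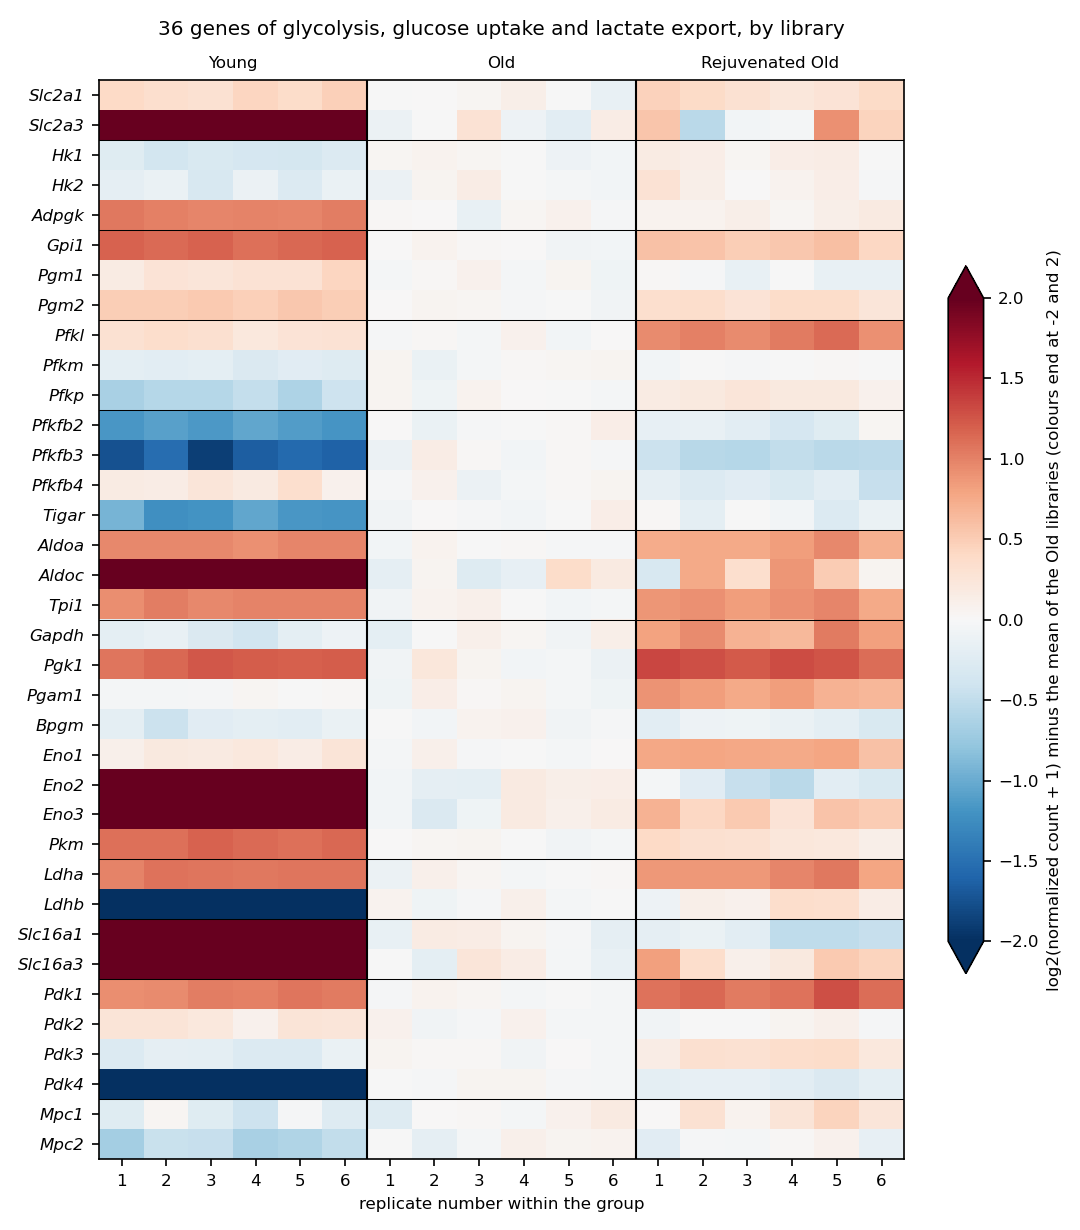
Each row is 1 of the 36 members tested, in order of role, and each column 1 of the 18 libraries. Colour gives log2(normalized count + 1) minus the mean of the Old libraries, and the rows of Pfkl, Aldoa, Tpi1, Gapdh, Pgk1, Pgam1, Eno1, Ldha and Pdk1 are red in all 6 Rejuvenated Old libraries.

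Of the transcripts for glucose uptake and trapping, 1 of 2 carriers and 2 of 3 phosphorylation genes tested were called higher and 0 lower, against 21.0% and 20.6% of all genes. Slc2a1, the widely expressed carrier GLUT1 and the most abundant per kilobase of the 3 carriers among the members, had 1081 to 1301 normalized counts in Old (median 1197), 1397 to 1648 in Rejuvenated Old (median 1518) and 1475 to 1660 in Young libraries (median 1555). All 6 Rejuvenated Old libraries were above the Old ones and overlapped with Young. The log2 fold change against Old was 0.34 (standard error 0.05, adjusted p = 3.03e-06). Slc2a8, a carrier outside the members named after its values were seen, had a median of 462.3 normalized counts per kilobase in Old and 420.3 in Rejuvenated Old libraries, beside 367.2 and 465.5 for Slc2a1. Slc2a3, the high-affinity carrier GLUT3, was at 3.78 to 12.1 normalized counts in Rejuvenated Old and 5.02 to 7.54 in Old libraries, with no call (log2 fold change 0.22, adjusted p = 0.42). Hexokinase traps glucose as glucose 6-phosphate, and Hk1 was the leading form. Hk1 had 5524 to 6239 normalized counts in Old (median 5982), 5910 to 6610 in Rejuvenated Old (median 6481) and 4571 to 5014 in Young (median 4729). Its difference after co-culture was small, with overlapping groups (log2 fold change 0.10, standard error 0.04, adjusted p = 0.0253). It was no longer called without Old replicate 5 or 6, without Rejuvenated Old replicate 1, 2, 4 or 5, or with quantile normalization (0.08 to 0.10). Hk2, the form of muscle and fat that many growing cells also induce, had a log2 fold change of 0.10 and was not called (adjusted p = 0.125), but was called without Old replicate 3 (0.13). For Adpgk, which uses ADP in place of ATP, the value was 0.10 (adjusted p = 0.0407), and its call was lost without Old replicate 2, 3 or 6 or Rejuvenated Old replicate 3, 5 or 6 (0.07 to 0.10). It was also lost with no filter on low values, libraries scaled to the same total, quantile normalization, the replicate block and fits of 2 groups (0.08 to 0.10).

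The isomerase Gpi1, which turns glucose 6-phosphate into fructose 6-phosphate, had 7086 to 7848 normalized counts in Old (median 7486), 9953 to 11259 in Rejuvenated Old (median 10901) and 15998 to 16926 in Young libraries (median 16630). The 3 groups did not overlap, with Rejuvenated Old between the others (log2 fold change against Old 0.53, standard error 0.03, adjusted p = 1.33e-11). Gpi1 lies on chromosome 7, and its difference of 0.62 between Young and Rejuvenated Old was 0.06 relative to the median of all genes there. Phosphoglucomutases link this step to glycogen. The gene listed as Pgm2, which the RefSeq annotation of GRCm38.p6 names Pgm1 (gene number 72157), rose by 0.32 (adjusted p = 1.19e-08). The gene listed as Pgm1, named Pgm2 by RefSeq (gene number 66681), was at -0.08 and was not called (adjusted p = 0.196).

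Phosphofructokinase catalyses the committed step of glycolysis and is built from liver (Pfkl), muscle (Pfkm) and platelet (Pfkp) subunits. Pfkl had 7036 to 7732 normalized counts in Old (median 7240), 13694 to 15884 in Rejuvenated Old (median 14345) and 8422 to 9277 in Young (median 8928). Every Rejuvenated Old library exceeded every library of the other groups (log2 fold change against Old 1.00, standard error 0.04, adjusted p = 2.03e-15). Pfkp rose by 0.18 (adjusted p = 0.00132), and Pfkm was at -0.01 (adjusted p = 0.761). Per kilobase of exon, Pfkl made up 59.3% to 62.9% of the 3 subunits in Old and 74.3% to 76.3% in Rejuvenated Old libraries. The sum of the subunits went from a median of 3203 to 5144 normalized counts per kilobase.

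The enzymes that set fructose 2,6-bisphosphate, the strongest activator of phosphofructokinase, were called higher in 0 and lower in 3 of 4 cases, against 21.0% and 20.6% of all genes. Pfkfb3, a form with high kinase activity that makes this activator, had 1104 to 1321 normalized counts in Old (median 1194), 807.8 to 887.7 in Rejuvenated Old (median 825.8) and 322.9 to 413.4 in Young libraries (median 385.4). It was the member with the largest fall after co-culture, and all 6 Rejuvenated Old libraries lay below the Old ones (log2 fold change -0.52, standard error 0.06, adjusted p = 1.07e-07). Pfkfb2 had the highest median per kilobase of the 4 genes in Old and Rejuvenated Old libraries, and Pfkfb4 in Young. Pfkfb2 went from 1068 to 1283 normalized counts (median 1169) in Old to 926.1 to 1205 (median 1024) in Rejuvenated Old, with 512.8 to 567.9 in Young (median 531.7). Its log2 fold change was -0.18 with overlapping groups (adjusted p = 0.00917). Pfkfb4 fell by 0.28 (adjusted p = 0.000232), and Tigar, a phosphatase that removes the activator, was at -0.10 (adjusted p = 0.191).

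Aldolase splits the 6-carbon sugar and triose phosphate isomerase (Tpi1) interconverts the 3-carbon products. Aldoa was the most abundant member per kilobase in each group. It had 22438 to 24477 normalized counts in Old (median 23125), 38274 to 45401 in Rejuvenated Old (median 39433) and 44013 to 46075 in Young libraries (median 45542). Tpi1 had 11712 to 13087 in Old (median 12043), 20807 to 24056 in Rejuvenated Old (median 22760) and 23326 to 24831 in Young (median 24384). For these genes the Rejuvenated Old libraries stood clear of the Old ones and overlapped with Young. The log2 fold changes against Old were 0.79 for Aldoa (standard error 0.04, adjusted p = 1.59e-13) and 0.88 for Tpi1 (standard error 0.04, adjusted p = 1.97e-14). Aldoc, the brain form, had 19.6 to 46.4 normalized counts in Rejuvenated Old and was not called (log2 fold change 0.37, adjusted p = 0.103), but was called without Rejuvenated Old replicate 1 (0.51).

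The payoff steps begin with Gapdh, which makes NADH, and Pgk1, which makes the first ATP. Pgk1 had 6178 to 7839 normalized counts in Old (median 6489), 14506 to 16861 in Rejuvenated Old (median 16249) and 14009 to 15771 in Young libraries (median 15423). Every Rejuvenated Old library lay above the Old range, and Rejuvenated Old and Young overlapped. Its log2 fold change of 1.25 against Old was the largest rise among the members (standard error 0.05, adjusted p = 7.71e-15). Gapdh had 212.9 to 266.5 normalized counts in Old (median 247.5), 382.4 to 505.7 in Rejuvenated Old (median 430.2) and 187.3 to 227.6 in Young (median 213.8). Its rise was 0.83 (standard error 0.07, adjusted p = 8.8e-09). Its level was far below that of its neighbours in the pathway, at 287.8 normalized counts per kilobase in Rejuvenated Old against 8903 for Pgk1. Of the 50-base windows of its longest coding transcript, 82.5% recur in other genes, 213 of them pseudogenes. The share was 72.2% for Eno1, 68.0% for Pgk1, 41.5% for Pgam1, 30.5% for Pkm, 27.0% for Ldhb, 23.2% for Mpc1, 19.6% for Gpi1, 16.6% for Ldha and 13.5% for Aldoa. The levels of these genes, and shares and ranks made from them, are uncertain where reads of copies were dropped or divided.

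Pgam1, the mutase of the next step, had 2211 to 2597 normalized counts in Old (median 2343), 3746 to 4386 in Rejuvenated Old (median 4088) and 2289 to 2432 in Young (median 2331). Eno1, the general enolase, had 10718 to 11756 in Old (median 10911), 16555 to 18973 in Rejuvenated Old (median 18838) and 11840 to 13180 in Young (median 12516). Both were higher in every Rejuvenated Old library than in any other library. Their log2 fold changes against Old were 0.78 (standard error 0.04, adjusted p = 1.76e-12) for Pgam1 and 0.74 (standard error 0.04, adjusted p = 2.62e-13) for Eno1. Eno3, the muscle enolase, rose by 0.49 (adjusted p = 2.9e-05), whereas Eno2, the neuronal form, fell by 0.30 with overlapping groups (adjusted p = 0.00395). Bpgm, which makes 2,3-bisphosphoglycerate and so diverts the chain from ATP, fell by 0.17 (adjusted p = 0.0116). Pkm, pyruvate kinase of the last step, had 22354 to 24344 normalized counts in Old (median 23524), 25464 to 30937 in Rejuvenated Old (median 28318) and 50242 to 53006 in Young libraries (median 50962). The Rejuvenated Old and Old ranges did not overlap, with a rise of 0.27 (standard error 0.04, adjusted p = 9.96e-06).

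**Figure D2:**
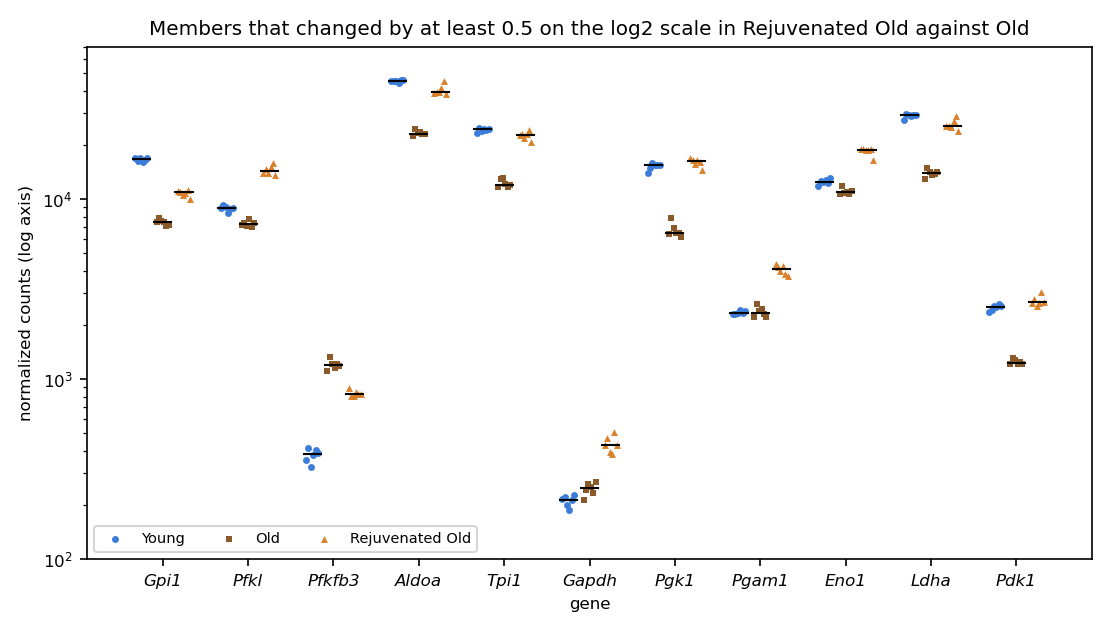
Normalized counts (log axis) in each library for the 11 members that changed by at least 0.5 on the log2 scale in Rejuvenated Old against Old, with a bar at each median. Pfkl, Gapdh, Pgam1 and Eno1 are higher in Rejuvenated Old than in both other groups, and Pfkfb3 is lowest in Young.

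Lactate dehydrogenase is a tetramer of Ldha, which favours lactate formation, and Ldhb, which favours the reverse. Ldha had 12876 to 14877 normalized counts in Old (median 13966), 23970 to 29007 in Rejuvenated Old (median 25460) and 27642 to 29606 in Young libraries (median 29334). The Rejuvenated Old libraries were all above the Old ones (log2 fold change 0.90, standard error 0.04, adjusted p = 1.05e-13). Ldhb had 11949 to 13727 in Old, 11842 to 16171 in Rejuvenated Old and 1850 to 2084 in Young libraries. Its difference after co-culture was 0.15 with overlapping groups (adjusted p = 0.0358), and the call was lost without Old replicate 2, 3, 5 or 6 or Rejuvenated Old replicate 4, 5 or 6 (0.12 to 0.15). It was also lost with no filter on low values, quantile normalization, fits of 2 groups and a single prior variance (0.12 to 0.15). Per kilobase, Ldha made up 39.9% to 46.1% of the pair in Old, 53.7% to 59.7% in Rejuvenated Old and 90.4% to 91.5% in Young libraries.

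The lactate carriers moved in opposite directions and stayed far below their level in Young MSCs. Slc16a1 (MCT1) had 576.2 to 733.6 normalized counts in Old (median 659.2), 461.0 to 594.7 in Rejuvenated Old (median 520.3) and 5509 to 6123 in Young libraries (median 5701). It fell by 0.33 after co-culture with overlapping groups (standard error 0.07, adjusted p = 0.000559). Slc16a3 (MCT4), the low-affinity exporter of glycolytic cells, rose by 0.41 (adjusted p = 0.00223), from 80.7 to 109.9 in Old to 99.9 to 164.8 in Rejuvenated Old, beside 836.2 to 942.2 in Young. The sum of both per kilobase was 149.0 to 188.7 in Old, 128.2 to 167.8 in Rejuvenated Old and 1448 to 1593 in Young libraries. Basigin (Bsg), the chaperone that takes both carriers to the membrane, had 27901 to 28819 normalized counts in Old, 47629 to 59799 in Rejuvenated Old and 33454 to 35876 in Young. Its log2 fold change against Old was 0.88 (standard error 0.04, adjusted p = 3.72e-13). Embigin (Emb), the other partner, was at -0.08 (adjusted p = 0.0936).

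Pyruvate dehydrogenase kinases hold pyruvate back from the citric acid cycle, and their forms changed unequally. Pdk1 had 1210 to 1304 normalized counts in Old (median 1232), 2547 to 3058 in Rejuvenated Old (median 2676) and 2364 to 2606 in Young libraries (median 2525). All Rejuvenated Old libraries were above all Old ones and overlapped with Young (log2 fold change against Old 1.13, standard error 0.04, adjusted p = 9.04e-16). Pdk4, the form linked to fasting and fat use, led per kilobase in Old and Rejuvenated Old libraries. It had 3272 to 3505 normalized counts in Old (median 3341), 2758 to 3009 in Rejuvenated Old (median 2953) and 195.5 to 254.6 in Young (median 231.5). The groups did not overlap, and Pdk4 fell by 0.20 after co-culture (adjusted p = 0.00129). Pdk3, which led per kilobase in Young, had 1230 to 1334 in Old (median 1306), 1428 to 1667 in Rejuvenated Old (median 1606) and 1062 to 1175 in Young (median 1094), and rose by 0.29 without overlap (adjusted p = 5.6e-06). Pdk2 was at 0.01 (adjusted p = 0.891), and its sign turned without Old replicate 2 or Rejuvenated Old replicate 4 or 5 (-0.011 to -0.002). Within the 4 kinases per kilobase, Pdk1 went from 10.4% to 11.4% in Old to 19.6% to 22.6% in Rejuvenated Old, and Pdk4 from 42.5% to 44.6% to 30.3% to 35.0%. The mitochondrial pyruvate carrier is a pair of subunits. Mpc2 had 1485 to 1794 normalized counts in Old (median 1705), 1439 to 1773 in Rejuvenated Old (median 1644) and 1050 to 1229 in Young (median 1145), and was not called after co-culture (log2 fold change -0.06, adjusted p = 0.428). Mpc1 was at 0.22 (adjusted p = 0.0446), a call lost without Old replicate 1, 2, 3 or 4 or Rejuvenated Old replicate 2, 4, 5 or 6 (0.17 to 0.23). It was also lost with no filter on low values, libraries scaled to the same total, quantile normalization and a single prior variance (0.19 to 0.22).

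**Figure D3:**
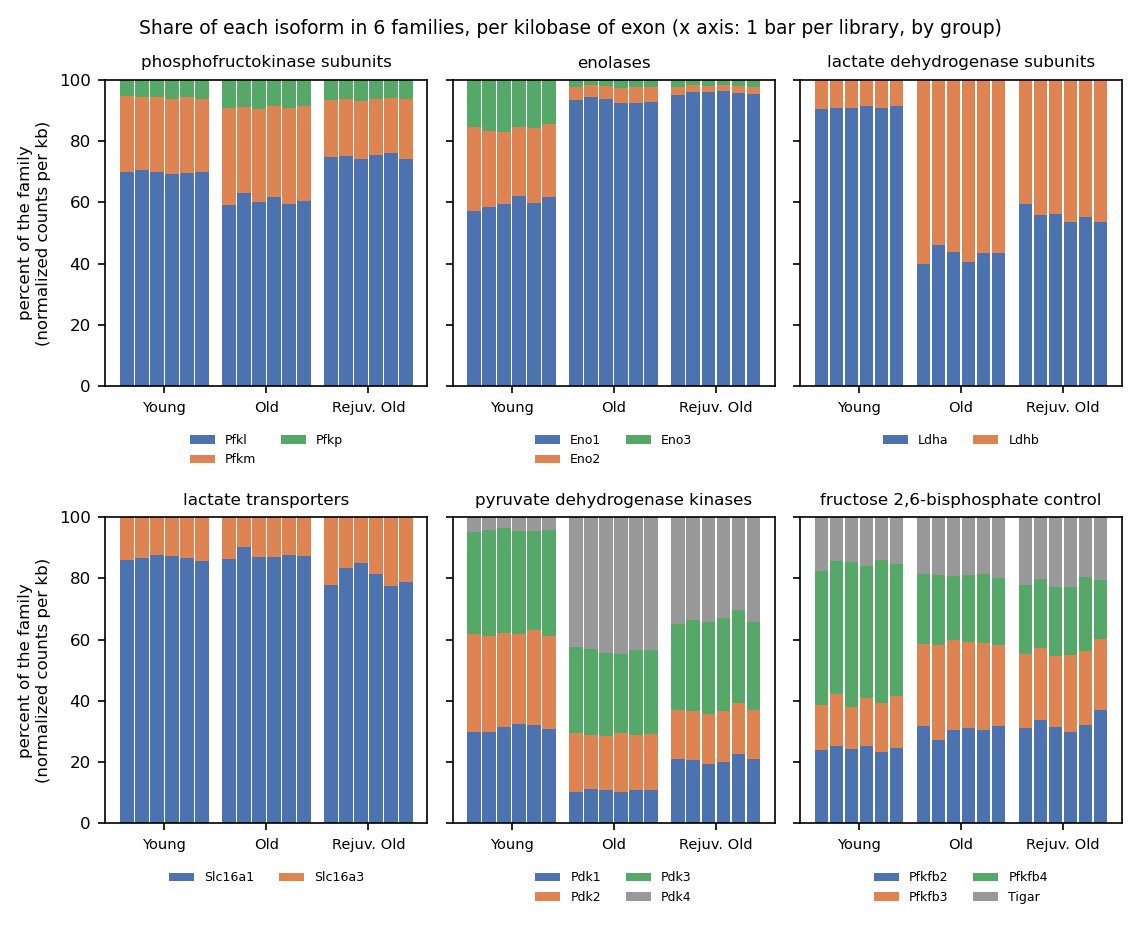
Share of each isoform within 6 families in each library, from normalized counts per kilobase of exon, with libraries grouped as Young, Old and Rejuvenated Old. Ldha makes up 90.4% to 91.5% of the lactate dehydrogenase pair in Young, 39.9% to 46.1% in Old and 53.7% to 59.7% in Rejuvenated Old libraries.

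The Rejuvenated Old libraries differed among themselves in these genes. Of the 10 members that rose by at least 0.5, Rejuvenated Old replicate 5 was highest in 7 (Gpi1, Pfkl, Aldoa, Tpi1, Gapdh, Ldha and Pdk1), and replicate 6 was lowest in 8. Replicate 1 was highest for Pgk1 and Pgam1. All 10 were called with each of the 18 libraries left out in turn. Leaving out single libraries gave 17 to 21 members called higher and 7 called lower. Of all 14353 genes tested, it gave 2754 to 3028 higher and 2675 to 2973 lower.

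Because 10 members rose by at least 0.5, promoters are shown for the 3 largest rises (Pgk1, Pdk1 and Pfkl), for Ldha as the source of lactate and for Pfkfb3 as the largest fall. Each is the 250 bases before a start site in the RefSeq table for GRCm38.p6, 5′ to 3′ on the strand of the gene. Capitals mark the letters ACGTG or GCGTG on either strand, the core of the element that hypoxia-inducible factors bind. CACGTG, the E box, holds ACGTG on both strands. The stretches lie at chrX:106186850-106187099 (Pgk1), chr2:71872974-71873223 (Pdk1), chr10:78009808-78010057 (Pfkl, minus strand), chr7:46845554-46845803 (Ldha) and chr2:11502091-11502340 (Pfkfb3, minus strand).
Pgk1: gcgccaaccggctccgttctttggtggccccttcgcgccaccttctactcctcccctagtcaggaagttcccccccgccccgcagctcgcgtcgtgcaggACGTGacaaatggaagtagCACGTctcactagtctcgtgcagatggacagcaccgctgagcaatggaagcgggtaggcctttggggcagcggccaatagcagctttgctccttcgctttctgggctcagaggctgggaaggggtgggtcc
Pdk1: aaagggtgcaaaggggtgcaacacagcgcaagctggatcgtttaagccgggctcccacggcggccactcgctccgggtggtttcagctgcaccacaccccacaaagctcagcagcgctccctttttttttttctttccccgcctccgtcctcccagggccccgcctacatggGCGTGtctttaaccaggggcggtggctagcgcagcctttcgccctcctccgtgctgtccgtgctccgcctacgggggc
Pfkl: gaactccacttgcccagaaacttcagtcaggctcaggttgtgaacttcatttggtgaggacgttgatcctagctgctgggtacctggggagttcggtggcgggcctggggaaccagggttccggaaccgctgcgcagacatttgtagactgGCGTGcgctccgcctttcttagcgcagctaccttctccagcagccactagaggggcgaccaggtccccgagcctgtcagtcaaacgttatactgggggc
Ldha: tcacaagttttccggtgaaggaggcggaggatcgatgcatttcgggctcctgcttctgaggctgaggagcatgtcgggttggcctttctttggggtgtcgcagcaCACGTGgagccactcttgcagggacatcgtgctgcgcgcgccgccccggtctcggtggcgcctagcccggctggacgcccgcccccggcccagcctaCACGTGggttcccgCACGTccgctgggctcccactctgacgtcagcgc
Pfkfb3: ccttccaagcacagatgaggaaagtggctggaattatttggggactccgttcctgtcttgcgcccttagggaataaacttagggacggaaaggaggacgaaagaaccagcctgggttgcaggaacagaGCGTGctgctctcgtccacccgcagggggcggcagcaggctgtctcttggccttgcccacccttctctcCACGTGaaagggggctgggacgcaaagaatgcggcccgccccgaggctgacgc

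The Pgk1 stretch holds matches that begin 150 and 131 bases before the start, that of Pdk1 1 at 78 bases and that of Pfkl 1 at 99 bases. Ldha has 2 E boxes and a further match 34 bases before the start. Pfkfb3, which fell, also holds matches, among them an E box. Ldha, Pdk1 and Pfkfb3 each have another RefSeq start site whose stretch is not shown. Counting both strands, those stretches hold 1, 0 and 1 matches, against 5, 1 and 3 in the ones shown. RefSeq start-site windows were found for 36 of the 38 members, and Slc2a3 and Slc2a4 had no entry. At least 1 promoter with ACGTG or GCGTG in these 250 bases was found for 30 of the 36 genes (83.3%), against 41.5% of the 27025 genes in the table. The share of single promoters was 40 of 53 for the members (75.5%) and 38.6% of all 32851. Among the 10 members that rose by at least 0.5 it was 8 genes, without Gpi1 and Tpi1. Among the 25 other members tested with an entry it was 22. The letters were thus present in members that rose and in members that did not, and a match is a description of these bases only. The 27025 genes were taken whatever their level here, whereas 36 of the 38 members reached the limit for testing. No share was taken over only the genes that reached it.

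Young against Old MSCs asks how these transcripts differ with the age of the donors. The log2 fold changes of the members ran from -3.87 for Pdk4 to 3.64 for Eno3, without Slc2a3. The lactate carriers and the neuronal and muscle enolases were higher in Young by 8.79-fold or more, while Ldhb and Pdk4 were at 0.156 and 0.0685 times their level in Old. Of the 36 members tested, 21 were called higher in Young, against 41.6% of all genes, and 14 lower, against 44.1%. The 21 include Slc2a3, which had to be higher in Young to be tested at all. The median log2 fold change was 0.25 for the members and -0.02 for all genes. Both this comparison and the previous one use the same Old libraries. The summed macrophage, osteoblast and adipocyte markers given above were all lower in Young than in Old libraries, as was each of their genes tested (12 of 12, 6 of 6 and 5 of 5 called lower). Those at no more than 3 reads in Young, among them 6 macrophage markers and Ibsp, passed the limit for testing only through the other groups. Their direction was thus fixed in advance. The stromal marker Thy1 likewise passed only through its level in Young. Of the stromal markers, 5 were called higher and 7 lower in Young, and of 4 osteoclast markers tested 3 higher and 1 lower. Of 10 proliferation genes, 2 were called higher and 6 lower in Young. Their part in these differences was not tested.

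**Figure D4:**
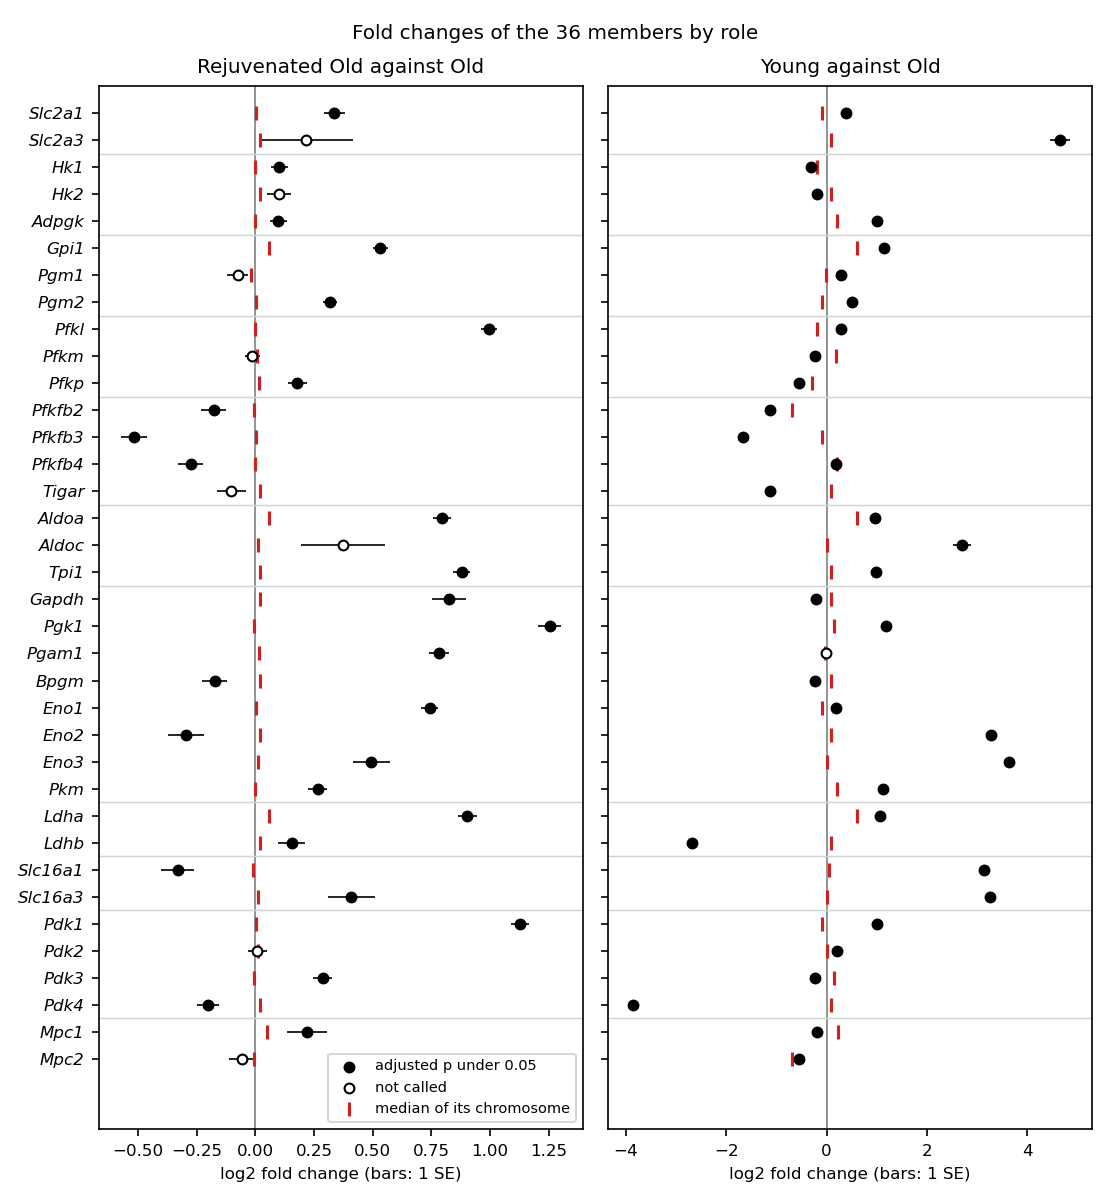
Log2 fold changes of the 36 members tested with 1 standard error, in order of role, for Rejuvenated Old against Old and Young against Old, which share the Old libraries and have different axes. Red marks give the median of all genes tested on the chromosome of each member, 0.61 on chromosome 7 and -0.69 on chromosome 1 in Young against Old.

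Slc16a1 was 8.79-fold and Slc16a3 9.5-fold higher in Young (log2 fold changes 3.14 and 3.25, adjusted p = 1.87e-21 and 9.05e-19). Eno2 had 5074 to 6268 normalized counts in Young and 504.1 to 654.4 in Old libraries (log2 fold change 3.27, adjusted p = 7.29e-21). Eno3 had 1887 to 2202 in Young and 131.0 to 182.7 in Old libraries (3.64, adjusted p = 1.18e-21). None of these ranges overlapped. As a share of the 3 enolases per kilobase, Eno1 made up 57.2% to 62.1% in Young and 92.5% to 94.5% in Old libraries. Slc2a3 was at 148.1 to 198.2 normalized counts in Young and 5.02 to 7.54 in Old, a description only since its Young level brought it past the limit for testing. It made up only 7.36% to 9.78% of the transcripts of Slc2a1 and Slc2a3 per kilobase in Young. Slc2a4, below the limit for testing, was at 10.3 to 21.3 in Young and 1.00 to 6.45 in Old. Aldoc was also higher in Young (2.69, adjusted p = 2.15e-12).

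Ldhb was lower in Young without overlap (log2 fold change -2.68, adjusted p = 1.03e-21), and the summed lactate dehydrogenase transcripts per kilobase overlapped, at 16135 to 17221 in Young and 16807 to 17703 in Old libraries. Pdk4 had 195.5 to 254.6 normalized counts in Young and 3272 to 3505 in Old libraries (-3.87, adjusted p = 4.17e-26). It was 3.63% to 4.8% of the 4 kinases per kilobase in Young and 42.5% to 44.6% in Old. Pfkfb3 (-1.66, adjusted p = 3.42e-18), Pfkfb2 (-1.12) and Tigar (-1.12) were lower in Young as well, and Pfkfb4 was the leading gene of that group there, with 43.1% to 47.2% per kilobase. Hk1 and Hk2 were slightly lower in Young (-0.31 and -0.19), and Adpgk was higher (1.01).

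Among the enzymes from glucose to lactate and the kinases, Pgk1 (log2 fold change 1.18), Gpi1 (1.15), Pkm (1.13), Ldha (1.06), Pdk1 (1.00), Tpi1 (0.98) and Aldoa (0.96) were higher in Young, each without overlap. Pfkl (0.29) and Eno1 (0.18) were higher by less. Pgam1 was not called (-0.01, adjusted p = 0.841), and its sign turned without Old replicate 2 (0.02) or 4 (0.00) and under other scalings. Gapdh was lower in Young with overlapping groups (-0.22, adjusted p = 0.00958), which was not called when libraries were scaled to the same total (-0.14). Gpi1, Aldoa and Ldha lie on chromosome 7, where the median of all 1032 genes tested was 0.61 in Young against Old. Above that median they were higher by 0.54, 0.35 and 0.45. Pfkfb2 and Mpc2 lie on chromosome 1, where the median of 800 genes was -0.69. Relative to it, Pfkfb2 was at -0.43 and Mpc2 at 0.14, where its own log2 fold change was -0.56. In Rejuvenated Old against Old the medians of these chromosomes were 0.06 and -0.01. Mpc1 was called lower in Young (-0.19, adjusted p = 0.0472), but not without any 1 of 12 of the 18 libraries (-0.19 to -0.14), namely Young replicate 1, 3, 4 or 6, Old replicate 2 to 6, or Rejuvenated Old replicate 2, 4 or 6. Both count tests, edgeR and DESeq2, lost that call too, as did the 3 other scalings, no filter on low values and a single prior variance (-0.19 to -0.11).

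Young against Rejuvenated Old MSCs asks which differences were present after co-culture, and it shares its libraries with the comparisons above. Of the 36 members, 16, Slc2a3 among them, were called higher in Young (41.5% of all genes) and 17 lower (44.1% of all genes), with a median log2 fold change of -0.07, against -0.02 over all genes. The sign of the members' median was not stable, since it was 0.02 with libraries scaled to the same total and 0.00 with quantile normalization. There was no call for Slc2a1 (0.05, adjusted p = 0.342), Pgk1 (-0.08, adjusted p = 0.131) and Bpgm (-0.06, adjusted p = 0.297). The call for Pgk1 appeared without Rejuvenated Old replicate 6 (-0.11), its sign turned at the same total (0.01), and Slc2a1 was called at the same total (0.14). Small differences with overlapping groups were called for Tpi1 (0.10, adjusted p = 0.0104), Ldha (0.16, adjusted p = 0.00116), Aldoa (0.17, adjusted p = 0.000256) and Pdk1 (-0.13, adjusted p = 0.00417). The call for Pdk1 was lost at the same total (-0.04) and with quantile normalization (-0.09). On chromosome 7 the median of all genes was 0.56, and relative to it Ldha was at -0.40, Aldoa at -0.39 and Gpi1 at 0.06.

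Gapdh (-1.04, adjusted p = 7.03e-12), Pgam1 (-0.79, adjusted p = 3.05e-14), Pfkl (-0.71, adjusted p = 1.08e-14) and Eno1 (-0.56, adjusted p = 9.3e-13) were higher in Rejuvenated Old than in Young MSCs, without overlap. So were Pdk4 (-3.66), Ldhb (-2.84), Pfkfb3 (-1.15), Tigar (-1.02), Pfkfb2 (-0.95), Pfkp (-0.73) and Pdk3 (-0.51), among others with smaller differences. In the other direction, Eno2 (3.57), Slc16a1 (3.47), Eno3 (3.15), Slc16a3 (2.84), Aldoc (2.32), Adpgk (0.91), Pkm (0.86) and Gpi1 (0.62) were higher in Young, each without overlap. The summed lactate carriers per kilobase were 1448 to 1593 in Young and 128.2 to 167.8 in Rejuvenated Old libraries, whereas Ldha had overlapping ranges of 27642 to 29606 and 23970 to 29007 normalized counts.

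Pathways that branch from glycolysis or take up its product were described in Rejuvenated Old against Old from lists of other genes. Their counts and medians stand beside 21.0% called higher, 20.6% called lower and a median of 0.01 over all genes. Of 19 genes tested of the citric acid cycle and its cytosolic isozymes, 3 were higher and 7 lower, with a median of -0.02. The largest called changes of the list were in Idh1, the cytosolic isocitrate dehydrogenase, which is not a step of the cycle itself (-0.53, adjusted p = 6.26e-10), and Idh2, a mitochondrial form (0.19, adjusted p = 3.44e-05). Of the 8 genes of the pyruvate dehydrogenase complex and its phosphatases, 3 were lower and 0 higher (median -0.17), with the activating phosphatases Pdp1 (-0.49, adjusted p = 3.21e-07) and Pdp2 (-0.39, adjusted p = 0.024) changed most. The pentose phosphate pathway had 4 genes higher and 3 lower of 8 (median 0.05), led by Pgls (0.22, adjusted p = 0.00295) and Taldo1 (-0.21, adjusted p = 0.000224).

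Glycogen genes were higher for 5 and lower for 2 of 12 (median 0.20), with the phosphorylase Pygl (0.72, adjusted p = 4.64e-08) and the targeting subunit Ppp1r3c (0.63, adjusted p = 3.93e-09) first. Of 3 gluconeogenesis genes tested (median 0.12), Pck2, the mitochondrial PEP carboxykinase, rose by 0.63 (adjusted p = 1.52e-10) and Pcx, pyruvate carboxylase, fell by 0.35 (adjusted p = 3.67e-07). The serine, hexosamine and glycerol branches had 4 of 13 genes higher and 2 lower (median 0.05), with the serine genes Shmt2 (0.49, adjusted p = 1.45e-07) and Psph (0.46, adjusted p = 1.8e-05) in front. Among 14 minor sugar carriers and isozymes 0 were called higher and 4 lower (median -0.13), among them Slc2a13 (-0.63, adjusted p = 0.000305) and Slc2a9 (-0.55, adjusted p = 0.000101). The glucose-sensing genes were called lower in 3 of 4 (median -0.15). Txnip, which is induced by glucose and draws GLUT1 from the membrane, had 1375 to 1640 normalized counts in Old and 416.7 to 1269 in Rejuvenated Old libraries. It fell by 1.00 on the log2 scale (standard error 0.18, adjusted p = 0.000138), and Arrdc4 fell by 0.20 (adjusted p = 0.00277).

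Many glycolytic genes are targets of hypoxia-inducible factors, so other targets and the oxygen sensors were listed too. Of 17 targets outside glycolysis, 15 were called higher and 1 lower, with a median of 0.73, against 21.0%, 20.6% and 0.01 over all genes. This list too was chosen with earlier results of the data known, and its log2 fold changes ran from -1.68 to 4.24. A part of these factors in the results for glycolysis was not tested. Ndufa4l2, which lowers complex I activity, had 147.2 to 173.3 normalized counts in Old and 2686 to 3662 in Rejuvenated Old libraries (log2 fold change 4.24, standard error 0.06, adjusted p = 1.31e-23), and Ankrd37 rose by 2.25 (adjusted p = 1.06e-09). Of the 8 oxygen sensors and factor subunits tested, 2 were higher and 3 lower (median -0.03). The prolyl hydroxylases Egln3 (2.37, adjusted p = 2.57e-13) and Egln1 (0.95, adjusted p = 2.67e-13), which mark the factors for destruction and are themselves induced by them, rose.

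**Figure D5:**
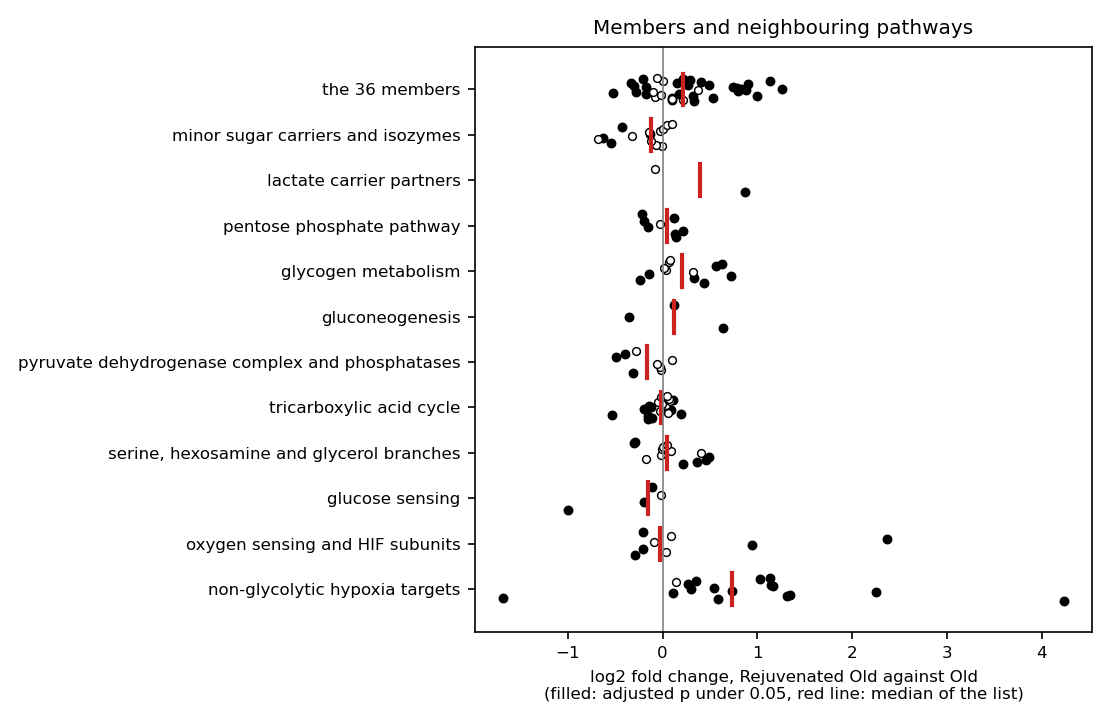
Log2 fold changes in Rejuvenated Old against Old of the 36 members and of each list of other genes, 1 point per gene (filled where the adjusted p is under 0.05), with the median of each list in red. The median is 0.22 for the members, 0.73 for hypoxia targets outside glycolysis and -0.02 for the citric acid cycle list.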

How the data were processed

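RNA of 18 cultures was sequenced as stranded, poly(A)-selected libraries. On Galaxy, the authors used HISAT2 for alignment to mm10, StringTie for transcript assembly, featureCounts for quantification, and DESeq2 for normalization. Versions, annotation and strand setting are not given in the sources used here, so overlapping and antisense genes are uncertain. What the authors deposited is a signal for each gene in each library, namely read counts divided by 1 size factor per library. Whole reads were recovered for 100% of values (tolerance 0.001 of a read). Levels of 3 reads or fewer were treated as the floor of detection.

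All 3 groups entered 1 limma 3.58.1 fit (R 4.3.3, prior variance following the mean) on log2(normalized count + 1) of 14353 genes with a mean of at least 10, with Benjamini-Hochberg adjustment over them all and calls under 0.05. Fold changes on this scale understate changes of low genes. On the recovered reads, edgeR 4.0.16 called 3133 genes higher and 3080 lower in Rejuvenated Old against Old, and DESeq2 1.42.0 called 3135 and 3210. Python 3.11.15 with numpy 2.4.6, pandas 2.3.3 and matplotlib 3.10.9 made tables and figures. Positions and promoters are RefSeq's for GRCm38.p6 (25275 genes matched), and exon lengths and transcripts GENCODE's vM21.

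The members and lists were chosen with earlier results of these data known. Values by library are given for members called with a change of 0.5 or more, up or down on the log2 scale, in Rejuvenated Old against Old and for the most abundant member of each role per kilobase of exon. Of each other pathway list, the 2 genes with the largest called change in that comparison are named. Ranges of further members were added after their values were seen. The alternatives covered pseudocounts, filters, scalings, a replicate block, a single prior variance, fits of 2 groups at a time, the count tests, medians by chromosome and each library left out. The run without members that share sequence was added after seeing the data.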

Additional observations from a re-analysis of the deposited data

Results flagged for a closer look

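Single libraries lay apart from the other 5 of their group, by a gap that passed Dixon's 95% limit for its share of the group's whole range, in 7 of 108 groups of values, or 6.48%. Chance gives about 1 in 20. Eno1 had the widest gap, 0.857 of the range, with Rejuvenated Old replicate 6 at 16555 normalized counts against 18628 to 18973 in the others. Its rise over Old was called without that library too. Eno1 in Old replicate 2 was high (11756 against 10718 to 11069, ratio 0.661). Of Young libraries, replicate 4 was low for Aldoa (44013 against 45392 to 46075, ratio 0.669) and Pdk2 (972.8 against 1058 to 1095, ratio 0.7). Young replicate 2 was low for Bpgm (428.3 against 492.8 to 529.3, ratio 0.638), and Young replicate 1 for Ldha (27642 against 28908 to 29606, ratio 0.645). Pdk4 was low in Rejuvenated Old replicate 5 (2758 against 2934 to 3009, ratio 0.699).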

How the results depend on the processing

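Over 31 alternatives, the members called higher in Rejuvenated Old against Old numbered 11 to 21 and those called lower 7 throughout. Young against Old had 15 to 22 higher and 11 to 14 lower, and Young against Rejuvenated Old 12 to 17 and 12 to 18. The 11 came from leaving out 10 members that share sequence with other genes, which also lowers the number tested. The same run gave 15 and 11 in Young against Old, and 12 and 12 in Young against Rejuvenated Old. The median in Rejuvenated Old against Old was then 0.10 in place of 0.22. Over all genes, the 30 other alternatives called 2699 to 3135 higher and 2675 to 3236 lower in Rejuvenated Old against Old. These counts were 5197 to 6990 and 5433 to 7293 in Young against Old. In Young against Rejuvenated Old they were 5179 to 6979 and 5438 to 7196, where the main fit called 41.5% and 44.1% of all genes. Single libraries left out gave 21 members higher and 13 to 14 lower in Young against Old, and 16 and 17 to 18 in Young against Rejuvenated Old. Medians were then 0.18 to 0.25 in Rejuvenated Old against Old, 0.24 to 0.26 in Young against Old and -0.10 to -0.05 in Young against Rejuvenated Old.

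The median in Young against Old was 0.29 with no filter on low values, 0.32 at the same total, 0.29 at the same 75th percentile, 0.28 with quantile normalization and 0.29 relative to chromosome medians, in place of 0.25. In Young against Rejuvenated Old it was -0.01 with no filter, 0.021 at the same total, 0.004 with quantile normalization, -0.01 without members that share sequence and -0.17 relative to chromosome medians, in place of -0.07. The cause was not tested.

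Of 108 fold changes of members, 94 kept sign and call in all fits. These exclude chromosome medians, relative to which called values turned sign: in Young against Old Mpc2 (0.14) and Pfkfb4 (-0.004), and in Young against Rejuvenated Old Mpc2 (0.20), Ldha (-0.40) and Aldoa (-0.39). Pgam1 (0.03) and Pdk2 (-0.002), not called, turned in Young against Old and Rejuvenated Old against Old. In the other fits, values that turned sign lay near 0 and were not called. Scaling to the same total turned Pgk1 (0.011) and Bpgm (0.031) in Young against Rejuvenated Old, Pgam1 in Young against Old (0.065) and Pdk2 in Rejuvenated Old against Old (-0.007). Quantile normalization turned Bpgm (0.008) and Pgam1 (0.038), and the 75th percentile Pgam1 (0.031). With single libraries left out, Pgam1 ran from -0.028 to 0.019, turning without Old replicate 2 (0.019) or 4 (0.002). Pdk2 ran from -0.011 to 0.026, turning without Old replicate 2 (-0.006) and Rejuvenated Old replicate 4 (-0.002) or 5 (-0.011). No scaling moved the median of all genes by over 0.1.

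Replicate numbers did not pair the libraries: over 18 same-numbered pairs, correlations of deviations ran from -0.152 to 0.0736, and 0 libraries correlated best with their own number. With the replicate block, 2916 genes were called higher and 2853 lower in Rejuvenated Old against Old, 5928 and 6291 in Young against Old, and 5921 and 6289 in Young against Rejuvenated Old. Depth limits the low members most: Slc2a3 and Aldoc had at most 13 and 48 reads in any Rejuvenated Old library.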
